A study of Mus musculus with 8 samples.

Results

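The 10 genes described here encode the D-type cyclins (Ccnd1, Ccnd2 and Ccnd3) and the inhibitors of cyclin-dependent kinases, which form the CIP/KIP family (Cdkn1a, Cdkn1b and Cdkn1c) and the INK4 family (Cdkn2a, Cdkn2b, Cdkn2c and Cdkn2d). They were chosen by symbol, and all 10 of them were found among the 47706 genes listed for the series, each as a single entry whose assembled locus held no other symbol. RNA was sequenced from primary mouse calvarial osteoblasts, the bone-forming cells of the skullcap, isolated from newborn animals. After 7 days of differentiation and a period in low serum, 4 cultures received parathyroid hormone (PTH) for 24 hours and 4 received vehicle. All 8 titles carry the mark Con, which the labels do not explain, and neither the genotype of these cells nor the number of animals behind each culture is given. The labels name adipogenic differentiation where the study's methods describe osteogenic medium. Nothing says that replicates came from separate isolations, so p-values measure the spread between these samples, which may be technical.

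D-type cyclins are made when growth signals reach a cell in G1, and they activate the kinases CDK4 and CDK6, which phosphorylate the retinoblastoma protein and so release E2F transcription factors for entry into S phase. INK4 proteins bind CDK4 and CDK6 directly and block their pairing with D-type cyclins. CIP/KIP proteins bind complexes of cyclins and kinases more broadly and block CDK2 above all. In the osteoblast lineage, exit from the cell cycle accompanies maturation, and PTH acts through a receptor that raises cyclic AMP.

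The libraries held between 33605610 and 56090654 counts with PTH and between 41618108 and 46757836 with vehicle, and every member had at least 443 counts in every sample. Levels below are in CPM, a gene's count scaled by the size of its library after TMM normalization, and are given as mean ± SD of 4 samples. Differences are log2 fold changes of PTH against vehicle from edgeR's quasi-likelihood test, fitted on the 16736 genes that passed a filter on low counts. A gene was called where its Benjamini-Hochberg adjusted p, over all of these, was under 0.05. All 10 osteoblast markers checked were expressed, with a summed level of 92870 to 105300 CPM with vehicle and 86870 to 125500 CPM with PTH, with Runx2 and Sp7 called lower with PTH. Col1a1, Col1a2 and Sparc made up most of that sum (means of 44360, 35070 and 16750 CPM with vehicle). The 8 adipocyte markers summed to 39.8 to 55.5 CPM with vehicle and 34.8 to 54.9 CPM with PTH, and 1 of them, Pparg, was called lower. The 8 macrophage markers summed to 1003 to 1623 CPM with vehicle and 1570 to 2027 CPM with PTH, and 2 of them (Lyz2 and Cd14) were called higher with PTH, the latter in 8 of 16 alternative fits. Lyz2 made up most of that sum (means of 914 CPM with vehicle and 1417 CPM with PTH). The 5 chondrocyte markers summed to 409 to 464 CPM with vehicle and 479 to 608 CPM with PTH, 2 of them called higher (Col2a1 and Acan), and the 5 endothelial markers summed to 6.15 to 6.97 CPM with vehicle and 5.66 to 6.97 CPM with PTH, with Kdr called higher, Tek called lower and Emcn at 0 counts in every sample. The part of these other cells in the results below was not tested. Of all tested genes, 23.3% were called higher and 22.5% lower. Beside these shares, the counts of called markers are not read as shifts in cell types. In bulk RNA, fewer cells of a type and less RNA per cell cannot be told apart.

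PTH raised the CDK inhibitor genes Cdkn1b, Cdkn1a and Cdkn2d and lowered Cdkn2b, while Ccnd3 rose slightly and the other 5 genes were not called. Cdkn1b, encoding p27, changed most, to 2.78 times the vehicle level. Thus 4 members rose and 1 fell, which is to be read against 23.3% of all tested genes that rose and 22.5% that fell, together 45.8%. In the same 5 members the 4 PTH-treated samples did not overlap the 4 vehicle-treated ones, as was so for 43.0% of tested genes. Cdkn1b alone changed by a log2 of at least 1, while 11.2% of all tested genes were called with a change of that size. The median log2 fold change of the members was 0.12, against -0.001 over all tested genes, and the median absolute change over all tested genes was 0.35.

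**Figure D1:**
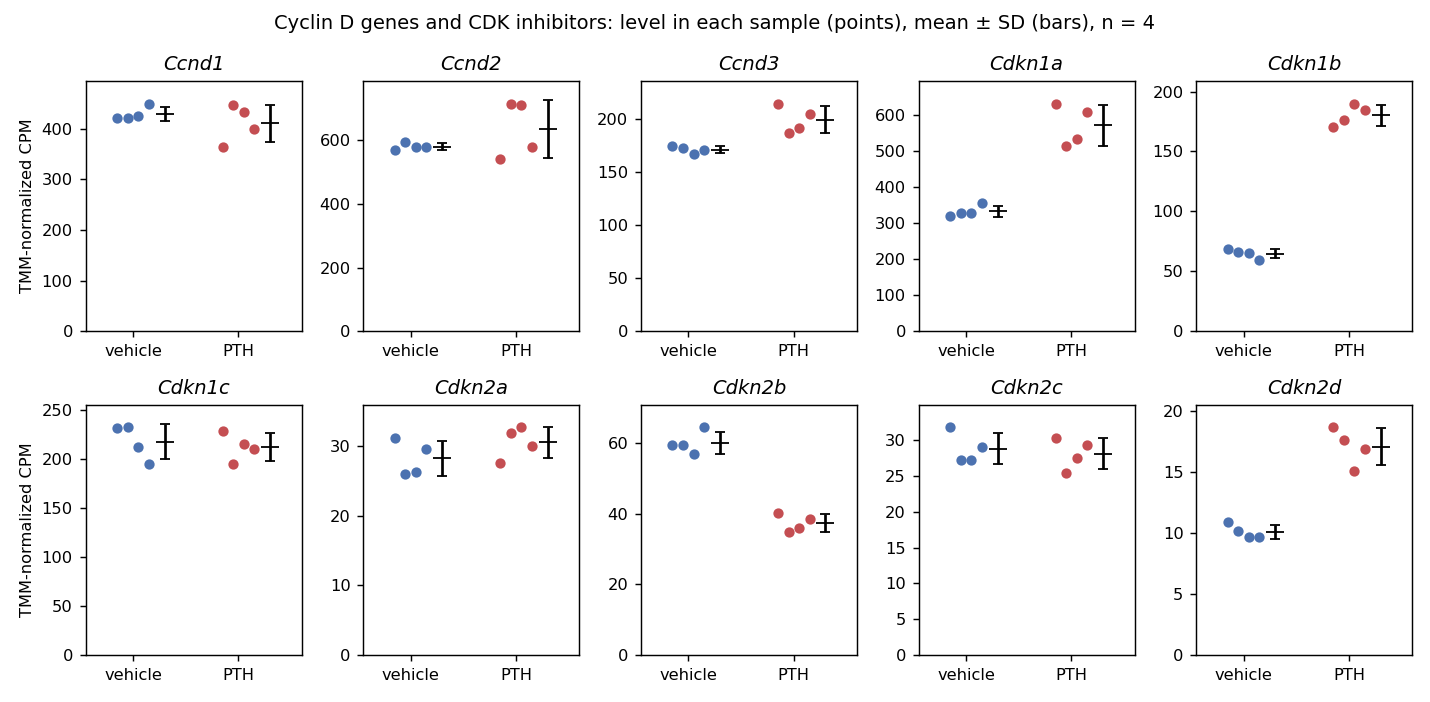
TMM-normalized CPM (vertical axes, starting at 0) of each gene in the 4 vehicle-treated (blue) and 4 PTH-treated (red) samples, with mean ± SD beside the points. The treatments lie apart for Ccnd3, Cdkn1a, Cdkn1b, Cdkn2b and Cdkn2d and overlap for the other 5 genes.

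**Figure D2:**
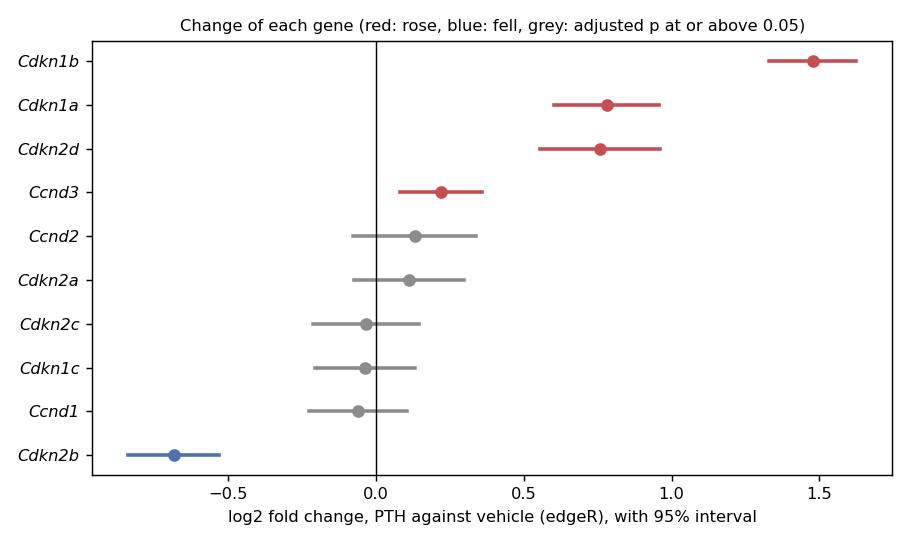
Log2 fold change of PTH against vehicle (horizontal axis) with its 95% interval for each gene, ordered by size. Cdkn1b lies farthest to the right at 1.48, Cdkn2b is the only gene called lower at -0.68, and the intervals of 5 genes include 0.

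Promoter sequences of 7 members, 11 start sites in all, were taken from RefSeq (GRCm38.p6), as 250 bases before and 50 after each start. Ccnd1, Ccnd2 and Cdkn1c had no entry and were not searched. The 120 bases that end just before the start are shown for the 4 genes with the larger called changes, since they hold the motifs that differ between them. Capitals mark matches, on either strand, to the cyclic AMP response element TGACGTCA, the GC box GGGCGG, or, for Cdkn1a, a p53 element with at most 1 mismatch.

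Cdkn1b, plus strand, chr6:134920281-134920400: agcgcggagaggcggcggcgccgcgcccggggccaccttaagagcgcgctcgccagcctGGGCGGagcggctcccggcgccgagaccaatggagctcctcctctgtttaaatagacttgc
Cdkn1a, plus strand, chr17:29090859-29090978: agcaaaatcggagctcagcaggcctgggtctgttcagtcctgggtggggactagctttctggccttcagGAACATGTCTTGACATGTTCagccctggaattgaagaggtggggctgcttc
Cdkn1a, plus strand, chr17:29093649-29093768: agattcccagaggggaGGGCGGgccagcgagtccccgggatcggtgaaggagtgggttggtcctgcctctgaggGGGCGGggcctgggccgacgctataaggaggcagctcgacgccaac
Cdkn2d, minus strand, chr9:21291210-21291329: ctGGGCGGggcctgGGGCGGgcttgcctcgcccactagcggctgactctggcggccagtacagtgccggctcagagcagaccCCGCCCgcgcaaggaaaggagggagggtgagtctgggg
Cdkn2b, minus strand, chr4:89311033-89311152: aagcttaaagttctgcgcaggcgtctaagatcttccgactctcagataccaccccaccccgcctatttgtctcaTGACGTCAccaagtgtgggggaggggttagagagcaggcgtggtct

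Of the 32851 promoters in the same table, 1.79% held TGACGTCA. Among the 7 members with an entry only Cdkn2b, the gene that fell, held it, with its first base 46 bases before the start. The GC box was present in 35.7% of all promoters and in 9 of the 11 member promoters, among them that of Cdkn1b (61 bases before the start) and that of Cdkn2d (5 matches). At the upstream start of Cdkn1a, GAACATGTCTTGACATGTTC begins 51 bases before the start and matches the p53 element with 1 mismatch, and 0.0883% of all promoters held a match with at most 1 mismatch. The p53 element was added to the search after this sequence had been read. The AP-1 motif TGANTCA, present in 7.81% of promoters, was in no member promoter, and an E2F motif (TTTCCCGC, TTTGGCGC or TTTCGCGC, 1.84% of promoters) was in that of Cdkn2a alone. A match describes letters and not binding.

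Among the D-type cyclins, Ccnd1 on chromosome 7 (144929931 to 144939925, GRCm38) encodes the cyclin most often linked to growth factor signals. Its level was 421, 421, 426 and 450 CPM in vehicle replicates 1 to 4 and 364, 447, 433 and 399.7 CPM in PTH replicates 1 to 4. The treatments overlapped, and 2 PTH-treated samples, replicates 1 and 4, lay below all vehicle-treated samples. The means were 429 ± 13.8 CPM (vehicle) and 411 ± 37.0 CPM (PTH), and the difference was -0.06 on the log2 scale (95% interval -0.23 to 0.10, edgeR adjusted p = 0.536). Exons of Ccnd1 share 1100 bases with an antisense gene, Oraov1 (LTO1 in the annotation), and the strand setting of the counting is not given in the sources used here, so reads from that stretch cannot be told apart. Oraov1 had 328 to 921 counts per sample, against at least 14845 for Ccnd1, and it fell by 0.70 on the log2 scale (edgeR adjusted p = 1.90e-04).

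Ccnd2 on chromosome 6 (127125162 to 127152193) encodes the closest relative of cyclin D1 in sequence and use. It was measured at 569, 593, 579.8 and 578 CPM in vehicle replicates 1 to 4 and at 539.5, 714, 709.5 and 578 CPM in PTH replicates 1 to 4. The vehicle-treated samples lay close together, with an SD of 9.72 CPM around 580.0, whereas the PTH-treated samples fell on both sides of them, with an SD of 90.0 CPM around 635. An antisense gene that shares 368 exonic bases with Ccnd2, 9330179D12Rik, had 16 to 44 counts per sample, and another that shares 372, Gm43126, had 0 in every sample. Ccnd2 was not called (log2 fold change 0.13, 95% interval -0.08 to 0.34, edgeR adjusted p = 0.285).

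Ccnd3, encoding a cyclin that often stays expressed in differentiated cells, lies on chromosome 17 (47505051 to 47599691). It stood at 175, 172, 166 and 170.3 CPM in vehicle replicates 1 to 4 and at 214, 186, 192 and 205 CPM in PTH replicates 1 to 4. Every PTH-treated sample lay above every vehicle-treated sample (two-sided p = 0.0286 by exact permutation, the smallest that 4 samples against 4 allow, here and for the other called members). Ccnd3 rose by a log2 of 0.22 (standard error 0.0636, edgeR adjusted p = 0.0133), the smallest of the called changes. That call was lost in 4 of 16 alternative fits: with library totals that were not TMM-normalized (adjusted p = 0.171), without the filter on low counts (0.0736), without vehicle replicate 2 (0.0567) and without vehicle replicate 3 (0.0507). Ccnd3 also shares 361 exonic bases with Bysl on the opposite strand, a gene of ribosome assembly that had 1146 to 2621 counts per sample and rose by 0.70 (adjusted p = 1.04e-04), against 6192 to 10976 counts for Ccnd3.

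Among the CIP/KIP genes, Cdkn1b on chromosome 6 (134920401 to 134925513) encodes p27, a protein that accumulates in resting cells. Its level was 68.4, 66.1, 65.5 and 59.0 CPM in vehicle replicates 1 to 4 and 170.4, 176, 189.8 and 185 CPM in PTH replicates 1 to 4. The lowest PTH-treated sample lay far above the highest vehicle-treated sample, and the coefficient of variation within treatments was 6.22% with vehicle and 4.75% with PTH. Cdkn1b rose from 64.8 ± 4.03 to 180.2 ± 8.57 CPM, that is by 1.48 on the log2 scale (standard error 0.0676, edgeR adjusted p = 5.68e-09). Of all tested genes, 93.7% had a smaller absolute change. The log2 fold change lay between 1.35 and 1.54 over 16 alternative fits, and Cdkn1b was called in each.

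Cdkn1a on chromosome 17 (29090976 to 29100727) encodes p21, the inhibitor induced by p53 and by several growth-arrest signals. It was measured at 320.2, 329, 328 and 356 CPM in vehicle replicates 1 to 4 and at 632, 515, 534 and 608.5 CPM in PTH replicates 1 to 4. The treatments did not overlap, and PTH replicates 1 and 4 were higher than PTH replicates 2 and 3. The mean of Cdkn1a rose from 333 ± 15.5 CPM with vehicle to 572 ± 57.0 with PTH (0.78 on the log2 scale, standard error 0.0815, edgeR adjusted p = 9.30e-06), and was called in all 16 alternative fits, in which the change lay between 0.65 and 0.84. An annotated antisense transcript of unknown kind shares 273 exonic bases with Cdkn1a and was not analysed here.

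Cdkn1c on chromosome 7 (143458339 to 143461050) encodes p57 and is an imprinted gene, expressed mainly from the maternal copy. It stood at 232, 232.5, 212 and 195 CPM in vehicle replicates 1 to 4 and at 229, 195, 216 and 210.1 CPM in PTH replicates 1 to 4. The ranges of the treatments were nearly the same. An annotated antisense gene, Gm44732, shares 625 exonic bases with Cdkn1c and was not analysed here. The means, 218 ± 18.1 CPM (vehicle) and 212 ± 14.2 CPM (PTH), differed by -0.04 on the log2 scale (95% interval -0.21 to 0.13, edgeR adjusted p = 0.728). So within this family Cdkn1b and Cdkn1a were called higher, and Cdkn1c was not called.

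Among the INK4 genes, Cdkn2b on chromosome 4 (89306299 to 89311039) encodes p15, an inhibitor known for its induction by TGF-β. Its level was 59.5, 59.4, 57.0 and 64.5 CPM in vehicle replicates 1 to 4 and 40.3, 34.9, 35.9 and 38.4 CPM in PTH replicates 1 to 4. All PTH-treated samples lay below all vehicle-treated samples. Of the 11 member promoters searched, its promoter, shown above, alone held the full cyclic AMP response element TGACGTCA. A part of this element in the change of Cdkn2b was not tested. Cdkn2b went from 60.1 ± 3.13 to 37.4 ± 2.48 CPM and fell by 0.68 on the log2 scale (standard error 0.0700, edgeR adjusted p = 7.69e-06). Over 16 alternative fits its log2 fold change lay between -0.81 and -0.64, and it was called lower in each.

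Cdkn2a, from 89274471 to 89294653 on the same chromosome, lies 11646 bases from Cdkn2b and encodes p16 and, from another first exon and reading frame, the p53 regulator p19Arf. The counts are per gene, so these products cannot be told apart here. Cdkn2a had 31.1, 26.0, 26.3 and 29.6 CPM in vehicle replicates 1 to 4 and 27.6, 31.9, 32.7 and 30.1 CPM in PTH replicates 1 to 4. The treatments overlapped, and the log2 fold change was 0.11 (95% interval -0.07 to 0.30, edgeR adjusted p = 0.307). The intervals of the neighbours Cdkn2a and Cdkn2b did not meet, the upper bound for Cdkn2b being -0.53. Per kilobase of exon, Cdkn2b stood at 1.80 ± 0.134 times Cdkn2a with vehicle and at 1.04 ± 0.149 times with PTH. This ratio within a library, which does not depend on the scaling between libraries, was 1.61 to 1.93 with vehicle and 0.922 to 1.23 with PTH. It does depend on the lengths used. Per length of the longest transcript it was 1.23 to 1.47 with vehicle and 0.704 to 0.942 with PTH, so that Cdkn2b then lay below Cdkn2a in every PTH-treated sample.

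Cdkn2c on chromosome 4 (109660876 to 109667189) encodes p18. It was measured at 31.8, 27.2, 27.3 and 29.1 CPM in vehicle replicates 1 to 4 and at 30.4, 25.4, 27.5 and 29.4 CPM in PTH replicates 1 to 4. The treatments overlapped almost fully (log2 fold change -0.03, 95% interval -0.21 to 0.14, edgeR adjusted p = 0.762). Cdkn2d on chromosome 9 (21288410 to 21291407) encodes the p19 protein of the INK4 family, which is unrelated to p19Arf. It stood at 10.9, 10.2, 9.66 and 9.68 CPM in vehicle replicates 1 to 4 and at 18.7, 17.7, 15.1 and 16.9 CPM in PTH replicates 1 to 4, so that the treatments did not overlap. Cdkn2d rose by a log2 of 0.76 (standard error 0.0934, edgeR adjusted p = 3.86e-05) and was called in all 16 alternative fits, with changes between 0.63 and 0.81. The INK4 family thus held a gene that rose, a gene that fell and a pair that was not called.

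In 7 of the 10 genes the PTH-treated samples were split in the same way. The share of all tested genes with this split was not counted, so it is not read as a trait of these genes. Replicates 1 and 4 were lower than replicates 2 and 3 in Ccnd1, Ccnd2 and Cdkn2a and higher in Ccnd3, Cdkn1a, Cdkn2b and Cdkn2c, whereas Cdkn1b, Cdkn1c and Cdkn2d did not show this split. The same libraries had the highest total counts of the treatment (56090654 and 43965864) and its lowest TMM factors (0.914 and 0.957, against 0.969 and 0.990 for replicates 3 and 2), and the part of depth or composition in this spread was not tested. Without TMM, the log2 fold changes of all tested genes shifted by a median of -0.13, the genes called split into 2889 higher and 5356 lower in place of 3907 and 3762, and 3 members were called higher and 1 lower.

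To set the genes beside each other, levels were divided by the length of their exons. With vehicle, Cdkn1c had the highest level of the 10 genes (107 ± 8.90 CPM per kb), followed by Cdkn1a (93.8 ± 4.36), Ccnd1 (91.1 ± 2.94) and Ccnd2 (61.6 ± 1.03). The ranges of Cdkn1c and Cdkn1a overlapped, as did those of Cdkn1a and Ccnd1. Below them came Cdkn2b (43.2 ± 2.26), Cdkn2a (24.1 ± 2.15), Ccnd3 (19.5 ± 0.400), Cdkn1b (14.2 ± 0.885), Cdkn2c (10.7 ± 0.798) and Cdkn2d (6.42 ± 0.373), each apart from the next. With PTH, Cdkn1a was highest (161 ± 16.0 CPM per kb) and lay apart from Cdkn1c (104 ± 6.97). Cdkn1b moved up to 39.6 ± 1.88 CPM per kb, above every INK4 gene and above Ccnd3 (22.7 ± 1.43), and Cdkn2b (26.9 ± 1.78) then overlapped Cdkn2a (26.1 ± 1.95). Parts of this order turned when the length of the longest transcript was used in place of all exons. With vehicle, Cdkn1a (160.3 ± 7.45 CPM per kb) then lay above Cdkn1c (114.7 ± 9.54) without overlap. Also with vehicle, Ccnd3 (44.3 ± 0.909) lay above Cdkn2a (31.6 ± 2.82) without overlap, and it overlapped Cdkn2b (43.2 ± 2.26). With PTH, Ccnd3 (51.6 ± 3.26) lay above Cdkn1b (39.6 ± 1.88), and Cdkn2a (34.1 ± 2.55) above Cdkn2b (26.9 ± 1.78), again without overlap.

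Summed per length, the D-type cyclins stood at 172 ± 2.85 CPM per kb with vehicle and 178 ± 15.8 with PTH, with overlapping samples. The CIP/KIP sum was 215 ± 6.11 with vehicle and 305 ± 21.1 with PTH, and the INK4 sum was 84.5 ± 4.53 and 74.3 ± 1.25, neither with overlap. In each sample the CIP/KIP sum exceeded the cyclin D sum, reaching 1.18 to 1.29 times its level with vehicle and 1.45 to 2.06 times with PTH. The INK4 sum, which also holds any Cdkn2a reads of p19Arf, was 0.466 to 0.519 times the cyclin D sum with vehicle. With PTH it was 0.380 to 0.476 times that sum, so by this ratio the treatments overlapped. Within the CIP/KIP family the share of Cdkn1b went from 6.62 ± 0.298% to 13.0 ± 1.19% and that of Cdkn1c from 49.7 ± 2.84% to 34.2 ± 1.16%. Within the INK4 family Cdkn2b went from 51.2 ± 1.81% to 36.2 ± 1.79%, and Cdkn2d from 7.61 ± 0.456% to 14.6 ± 1.19%. Ccnd1 made up 52.9 ± 0.927% of cyclin D transcripts with vehicle and 49.2 ± 0.694% with PTH. These shares are descriptions of the chosen genes and carry no test. They move with the lengths used, as given in the closing section.

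**Figure D3:**
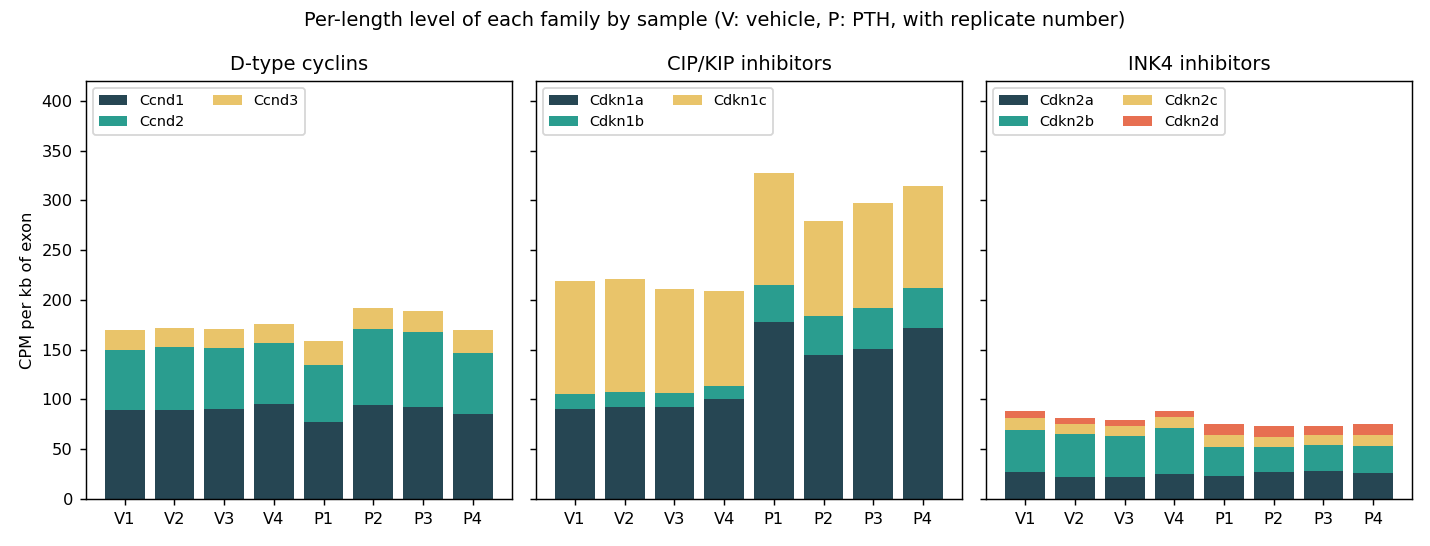
Stacked bars of CPM per kilobase of exon (vertical axis, starting at 0) for the D-type cyclins, CIP/KIP inhibitors and INK4 inhibitors in vehicle replicates 1 to 4 (V1 to V4) and PTH replicates 1 to 4 (P1 to P4). The CIP/KIP bars are taller in every PTH-treated sample (279 to 328) than in every vehicle-treated sample (209 to 221), with larger Cdkn1a and Cdkn1b segments.

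Among the kinases and later cyclins that act with these genes, 3 of 11 tested genes fell (27.3%, against 22.5% of all tested genes) and 0 rose (against 23.3%), by edgeR and by DESeq2 alike. Counting every unadjusted edgeR p under 0.05 gave 4 and 0, for which no share over all genes was taken. Library totals without TMM gave 7 falls, in a fit that called 5356 of the 16736 tested genes lower in place of 3762. Their median log2 fold change was -0.04. The D-cyclin partners Cdk4 (229 ± 12.6 CPM with vehicle and 223 ± 3.28 with PTH, log2 fold change -0.04) and Cdk6 (28.4 ± 4.08 and 29.5 ± 3.36, 0.05) were not called, nor was Cdk2, the main target of p27 (-0.01). The G1/S cyclins Ccne1 (-0.33, adjusted p = 0.0713) and Ccne2 (0.18, adjusted p = 0.0992) missed the threshold. Those that fell were Ccna2, the S-phase cyclin (-0.48, adjusted p = 0.0208), and Ccnh (-0.54) and Mnat1 (-0.55), which form the CDK-activating kinase with Cdk7 (-0.03, not called). The call of Ccna2 was lost when PTH replicate 2 or 3, or vehicle replicate 2 or 4, was left out.

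Among the pocket proteins and E2F factors, the targets of cyclin D kinases, 2 of 13 tested genes rose (15.4%, against 23.3% of all tested genes) and 6 fell (46.2%, against 22.5%). The falls numbered 4 to 6 over the fits that left out 1 sample. Without TMM they numbered 8, in a fit that called 5356 of all tested genes lower in place of 3762. Rb1 was not called (25.6 ± 4.74 CPM with vehicle and 23.6 ± 1.65 with PTH), whereas its relatives Rbl1 (p107) and Rbl2 (p130) fell by 0.53 and 0.49 on the log2 scale (adjusted p = 6.72e-04 and 4.30e-04). Of the E2F factors, the repressor E2f6 rose by 0.82 on the log2 scale, with 31.4 ± 2.33 CPM in vehicle and 55.6 ± 1.88 CPM in PTH samples (adjusted p = 1.53e-06). The repressive factor E2f4 fell (-0.33, adjusted p = 0.0106), as did the E2F partner Tfdp2 (-0.39, adjusted p = 0.00247). Calls near the threshold were those of E2f1 (-0.23, adjusted p = 0.0381), E2f2 (-0.69, adjusted p = 0.0343) and E2f7 (0.45, adjusted p = 0.0348). They stood in 9, 10 and 8 of 16 alternative fits, respectively. Leaving out any of PTH replicates 2 and 3 and vehicle replicates 2 and 3 ended the call of E2f1. For E2f2 this held for PTH replicates 1, 2 and 3 and vehicle replicates 1, 3 and 4, and for E2f7 for PTH replicates 1, 3 and 4 and vehicle replicates 1 and 3. E2f1 was also not called by DESeq2, with the replicate number in the fit, or with an offset for transcript length. E2f7 was also not called without TMM, without the filter on low counts, or with the replicate number in the fit.

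Of 25 E2F target and mitosis genes, 2 rose and 12 fell, or 8.0% and 48.0% where all tested genes gave 23.3% and 22.5%. The falls numbered 9 to 15 over the 8 fits that left out 1 sample. Library totals without TMM gave 18 falls, in a fit that called 5356 of all tested genes lower in place of 3762. The median log2 fold change of the list was -0.34, against -0.001 over all tested genes. Mki67, the proliferation marker, went from 46.3 ± 6.96 to 31.5 ± 2.23 CPM (-0.56 on the log2 scale, adjusted p = 7.68e-04), Plk1, a mitotic kinase, had the largest fall (-0.90, adjusted p = 2.56e-04), and Tyms, which makes thymidylate, the largest rise (0.79, adjusted p = 5.61e-06).

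Proteins that set the turnover of cyclin D, p21 and p27 formed a list of 15 genes, of which 5 rose (33.3%, against 23.3% of all tested genes) and 2 fell (13.3%, against 22.5%). Usp2, a deubiquitinase that protects cyclin D1, rose by 4.91 on the log2 scale, from 6.78 ± 1.22 CPM with vehicle to 203 ± 9.47 with PTH (adjusted p = 2.82e-11). Cul1, the scaffold of the ubiquitin ligase that removes p27, fell from 195 ± 9.39 to 102 ± 4.64 CPM (-0.93, adjusted p = 2.02e-07). Skp2, the subunit of that ligase which binds p27, was not called (-0.04, adjusted p = 0.806).

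Because Cdkn1a is a p53 target, 20 genes of p53 and its targets were examined, of which 6 rose (30.0%, against 23.3% of all tested genes) and 11 fell (55.0%, against 22.5%), with a median log2 fold change of -0.26. Trp53 fell from 84.2 ± 5.18 to 60.9 ± 4.34 CPM (-0.47, adjusted p = 2.10e-04). Mdm2, which degrades p53 and is itself a target, had a log2 fold change of 0.21 (adjusted p = 0.0339), a call that stood in 9 of 16 alternative fits and was lost without PTH replicate 3 or 4 or vehicle replicate 1, 2 or 4. The apoptosis genes Pmaip1 (1.88, adjusted p = 3.20e-08) and Bbc3 (-1.67, adjusted p = 2.60e-07) marked the extremes. The list thus held called changes in both directions.

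Polycomb proteins are known to repress the locus of Cdkn2a and Cdkn2b. Of 17 genes for these proteins and the opposing demethylases, 4 rose (23.5%, close to the 23.3% of all tested genes) and 7 fell (41.2%, against 22.5%). Bmi1 fell from 54.6 ± 2.76 to 43.4 ± 0.596 CPM (-0.33 on the log2 scale, adjusted p = 8.10e-04) and Ezh2 from 22.5 ± 2.65 to 11.7 ± 1.85 CPM (-0.94, adjusted p = 7.52e-05). Cbx2 had the largest fall (-1.32) and Jarid2 the largest rise (1.12), and the demethylase gene Kdm6b rose by 0.29 (adjusted p = 0.0115), a call lost without TMM.

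**Figure D4:**
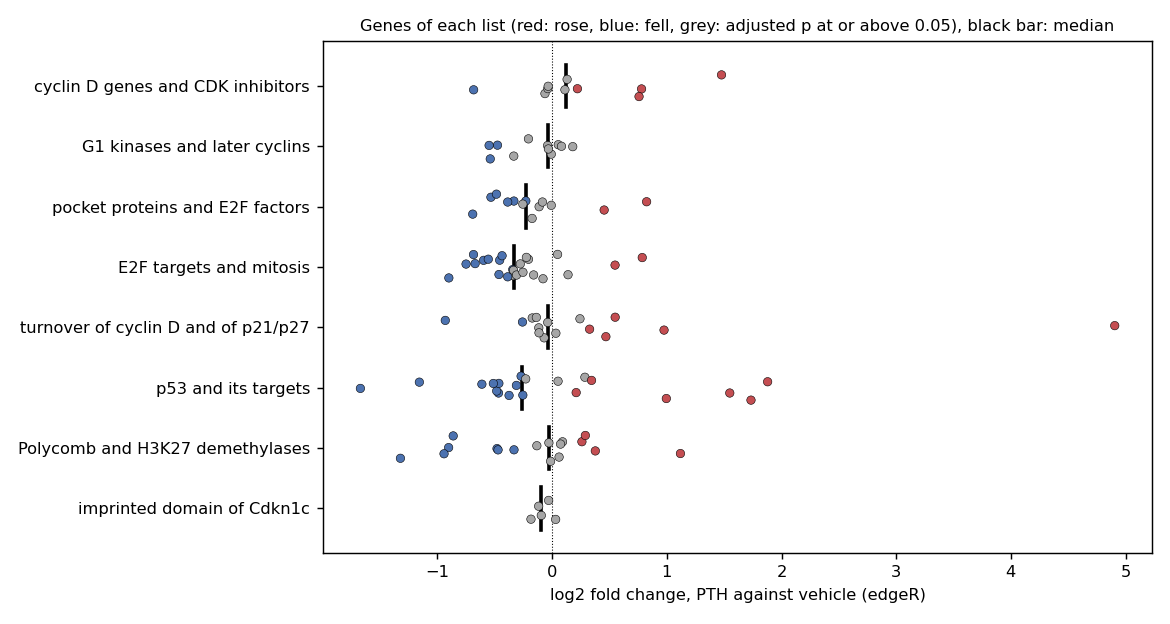
Log2 fold change of PTH against vehicle (horizontal axis) for every tested gene of the 10 members and of 7 related lists, with a black bar at each median. The E2F target list has its median at -0.34, while Usp2, at 4.91, lies far to the right of the other genes of the turnover list.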

How the data were processed

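From poly(A) libraries, the authors mapped reads by HISAT2 (GRCm38), ran StringTie2 for transcript assembly, and deposited an unnormalized count per gene and sample, which the assembler's companion script estimates from transcript coverage. The read length, strand and annotation given to it are not given in the sources used here. Samples were grouped by title. Counts passing filterByExpr (minimum count 10, minimum total 15) were compared by edgeR 4.0.16 (TMM, two-sided quasi-likelihood F-test, Benjamini-Hochberg over 16736 genes) in R 4.3.3. The study used DESeq2, here (1.42.0) an alternative. For each member an exact permutation test of log2(CPM + 0.1) ran over 70 assignments. Positions and exon lengths came from GENCODE's annotation of GRCm38, matched by symbol for all 10 members. The fits were tested on simulated data. The members and lists were chosen with earlier results of these data known. All 10 members are named, any of the kinases, cyclins, pocket proteins and E2F factors may be, and so are a few fixed genes, the nearest neighbours and of each other list the called genes with the largest rise and fall. The numbers of the replicates were not taken to pair samples across treatments. Same-numbered samples had correlations of deviations between -0.041 and 0.027, which cannot show whether they came from a shared isolation. Python 3.11.15 with pandas 2.3.3 and matplotlib 3.10.9 made tables and plots. Protein sequences were not analysed here.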

Additional observations from a re-analysis of the deposited data

How the results depend on the processing

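Of the 10 members, Cdkn1a, Cdkn1b, Cdkn2b and Cdkn2d kept their call and direction in all 16 alternative fits. The log2 fold change of Ccnd3 missed the threshold with totals without TMM (0.093), without the filter on low counts (0.187) and without vehicle replicate 2 (0.217) or 3 (0.206). Over the 8 fits that left out 1 sample, called or not, the change of Ccnd3 lay between 0.182 and 0.262. Members that were not called changed sign near 0: with an offset for transcript length, Ccnd1 (0.005), Cdkn2a (-0.049) and Cdkn2c (0.009); with totals without TMM, Cdkn2a (-0.012); and over the fits that left out 1 sample, Cdkn1c (-0.090 to 0.013) and Cdkn2c (-0.075 to 0.021). With a fold minimum of 1 on the log2 scale, 1232 genes were called higher and 650 lower, among them 1 member higher and 0 lower. Under it the lists held, higher and lower, 0 and 0 (kinases and later cyclins), 0 and 0 (pocket proteins and E2F factors), 0 and 0 (E2F targets), 1 and 0 (turnover), 3 and 2 (p53) and 1 and 1 (Polycomb). With totals without TMM, the falls numbered 7 among kinases and later cyclins, 5 in the turnover list and 3 in the domain of Cdkn1c, and the rises 1 among pocket proteins and E2F factors and 2 among Polycomb genes. That fit called 2889 of all tested genes higher and 5356 lower. The offset for transcript length gave 1 rise among kinases and later cyclins and 1 fall in the domain of Cdkn1c, and the fit without a filter gave 1 rise among pocket proteins and E2F factors. Leaving out 1 sample gave 0 to 1 rises among kinases and later cyclins, 1 to 2 rises among pocket proteins and E2F factors and 0 to 1 falls in the domain of Cdkn1c. Per length of the longest transcript in place of all exons, the shares with vehicle and with PTH were 45.8% and 41.9% for Ccnd1, 17.7% and 19.9% for Ccnd3, 55.45% and 64.4% for Cdkn1a, 4.92% and 9.33% for Cdkn1b, 39.6% and 26.2% for Cdkn1c, 33.7% and 40.5% for Cdkn2a and 46.2% and 31.8% for Cdkn2b, and 36.6% for Ccnd2 with vehicle. The cause of these changes was not tested, apart from the fewer samples or other lengths that the alternatives themselves bring.

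The replicate numbers were not taken to pair the samples. The deviations of same-numbered samples had correlations between -0.041 and 0.027, which cannot show whether such samples came from a shared isolation. With the number as a replicate block, 3571 genes were called higher and 3432 lower, 4 members higher and 1 lower, and 1 of the pocket proteins and E2F factors higher in place of 2. With 4 samples a group, the data do not exclude changes within the 95% intervals given for the 5 members not called.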

Other observations

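The nearest protein-coding neighbours of the called members did not move as a block. Apold1, an early-response gene of the vessel wall 56205 bases beyond the 3′ end of Cdkn1b, rose from 1.30 ± 0.409 to 362 ± 21.3 CPM (log2 fold change 8.11, edgeR adjusted p = 1.07e-11), while Gpr19, 21823 bases on the other side, fell by 0.80 (log2, edgeR adjusted p = 0.0105). Srsf3, a splicing factor gene beside Cdkn1a, rose by 0.74 (adjusted p = 8.51e-07), close to the 0.78 of Cdkn1a. Mtap, on the far side of Cdkn2a from Cdkn2b, fell by 0.76 (adjusted p = 2.53e-06), so that Cdkn2a, which was not called, lay between a pair of genes that fell. Beside Cdkn2d, Kri1 rose by 0.51 (adjusted p = 0.0318) with overlapping samples. Around Ccnd3, Med20 rose by 0.48 (adjusted p = 0.00132) and Taf8 fell by 0.41 (adjusted p = 0.0134), the latter with overlapping samples.

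In the imprinted domain of Cdkn1c, 5 of 8 genes had enough counts to be tested. By edgeR and DESeq2 0 of them were called in either direction (0 also at an unadjusted edgeR p under 0.05). Of all tested genes, edgeR called 45.8%, and with 5 genes the count of 0 is not read as a trait of the domain. Library totals without TMM gave 3 falls, in a fit that called 5356 of all tested genes lower in place of 3762. The 5 tested genes of the domain had a median log2 fold change of -0.09, beside -0.04 for Cdkn1c. Kcnq1ot1, the long noncoding RNA of that domain, stood at 3.14 ± 0.917 CPM with vehicle and 3.22 ± 1.04 CPM with PTH.

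By likeness over the 8 samples (Pearson's r of log2 CPM over 14057 genes averaging 1 CPM or more), the gene nearest to Cdkn1b was Rgcc, a regulator of cell cycle kinases (r = 0.998), which went from 4.32 ± 0.351 to 72.8 ± 5.79 CPM. The nearest to Cdkn1a was the amino acid transporter gene Slc7a5 (r = 0.997), to Cdkn2d the glutamine transporter gene Slc38a3 (r = 0.996), to Cdkn2b the retromer gene Vps26b (r = 0.998) and to Ccnd3 the annexin gene Anxa2 (r = 0.995). These values describe the points, which share libraries and fall into 2 treatments, so the difference between treatments makes up most of each r.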
